A study of Mus musculus with 9 samples.

Results

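The comparison described here set 1 week of intermittent fasting against a single fast of 1 day, in the substantia nigra of mice. It uses 6 libraries, 3 per group, of the 9 in the series, chosen by their treatment labels, and every gene measured entered the test. All 9 libraries were made from sham-operated C57BL/6 mice of wild type genotype, which were 12 weeks old at the start and received water freely. The 1 day libraries came from mice that went through 1 fast of 24 hours, begun 2 hours before lights off. The 1 week libraries came from mice that went through 3 such fasts on alternate days within a week. The other 3 libraries came from mice fed ad libitum for 1 week and moved between cages at the same times, and their values are given as the background. Whether the libraries stem from separate animals is not stated in the labels, and p-values measure only the spread between these libraries, which may be technical. How long after the last fast the tissue was taken is not given in the sources used, so the number of fasts and the time since the last one cannot be told apart.

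The substantia nigra lies in the midbrain and holds dopamine neurons that project to the striatum, beside a larger population of GABA neurons and much myelin. Fasting lowers insulin and raises glucocorticoid hormone, ketone bodies and fatty acids in blood. In brain the glucocorticoid receptor, a hormone-bound transcription factor, acts on many glial, vascular and neuronal genes, and meal times can shift the clocks of tissues outside the central pacemaker. The comparison of 1 week with 1 day asks whether RNA levels after repeated fasts differed from those after a single one.

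No gene passed the test of a difference between 1 week and 1 day of fasting over all genes. Of 20535 genes tested, 0 passed edgeR's quasi-likelihood test at an adjusted p of 0.05 (0% of genes), and the smallest adjusted p was 0.853. At an unadjusted p below 0.05 edgeR counted 1071 genes, where 5% of the genes tested is 1027, and at an unadjusted p below 0.001 it counted 6 genes, where that share of the genes tested is 20.54. The 1071 genes were uneven in direction, with 724 higher at 1 week (3.53% of genes) and 347 lower (1.69%). Limma voom with quality weights called 0 genes and counted 1119 at an unadjusted p below 0.05. DESeq2 called 3 of 20516 genes (0.0146%) and counted 1190. The 3 were Tspan11 (higher, adjusted p = 0.00728 by DESeq2), Apold1 (lower, adjusted p = 0.0407 by DESeq2) and an unnamed gene model.

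The absence of calls came with limited precision, which differed between genes. The log2 fold change, taken throughout as 1 week over 1 day, had a 95% interval that reached a median of 0.43 to either side of the estimate. For 76.4% of genes the whole interval lay within a 2-fold change in either direction, and for 47.7% it lay within a 1.5-fold change. Among the 6032 genes with a mean level of 5 log2 CPM or more, the interval lay within 2-fold for 96.8%. CPM are counts relative to the effective library size. The median log2 fold change was -0.00084 over all genes and the median of its absolute value was 0.15. Estimates of 1 or more in size were found for 511 genes, of which 22 had a mean level of 5 log2 CPM or more, so the large estimates stood mostly at low levels, as the plot of level against difference shows.

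**Figure D1:**
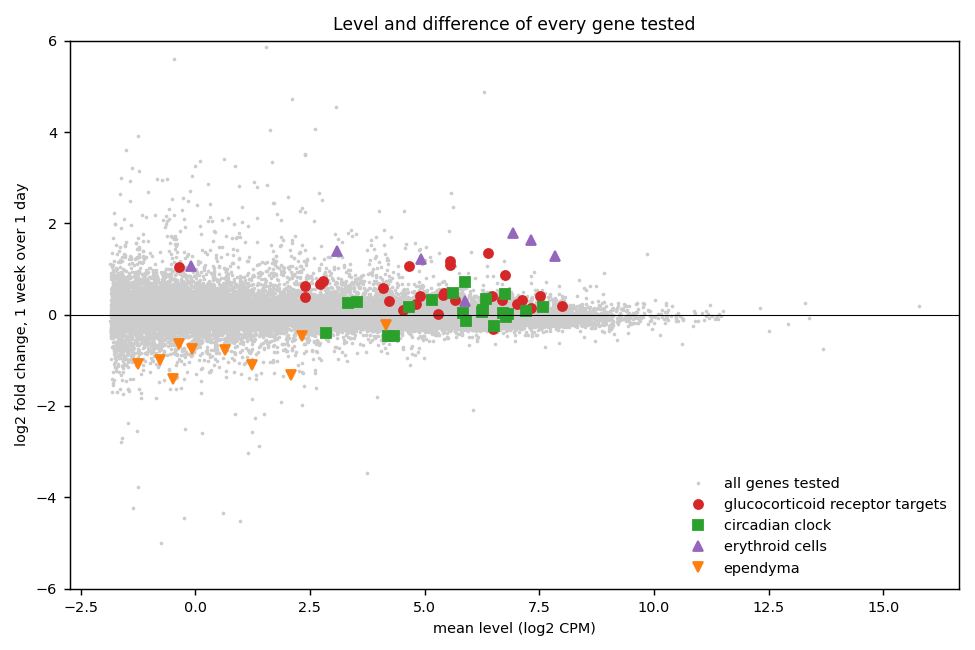
Each grey point is 1 of the genes tested, with its mean level over the 9 libraries in log2 CPM on the horizontal axis and its log2 fold change of 1 week over 1 day on the vertical axis, and coloured points mark the members of 4 gene lists. Genes beyond 6 in either direction are outside the plotted range. The cloud is centred on 0 and narrows as the level rises, while 27 of 28 glucocorticoid receptor targets and all 7 erythroid genes lie above 0 and all 10 ependymal genes lie below it.

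The 6 libraries differed within their groups about as much as between them. Over 11098 genes, the root mean square log2 difference of a pair of libraries was 0.275 to 0.548 within the 1 day group, 0.336 to 0.461 within the 1 week group, and 0.193 to 0.651, with a median of 0.407, for the 9 pairs that took 1 library from each. Ad libitum pairs spanned 0.267 to 0.280. The lowest value of any pair, 0.193, belonged to the replicates numbered 1 of both fasted groups, but no pair of libraries agreed within sampling noise: chi-square per gene was 26.4 or more in every pair. Replicate 2 of each fasted group stood apart, with quality weights of 0.213 (1 day) and 0.507 (1 week) against 0.972 to 1.93 for the others. Without both of those libraries edgeR again called 0 genes and counted 1878 at an unadjusted p below 0.05. Library totals were 37732284 to 46522059 counts at 1 day, 36109995 to 54248856 at 1 week and 38516394 to 45693865 ad libitum. Of the marker genes of the region, Th was present at 181 ± 23.9 CPM (SD, n = 3) ad libitum and Slc6a3, the dopamine transporter gene, at 388 ± 52.7 CPM (SD, n = 3).

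Of the 10 named genes of smallest p among those higher at 1 week, none passed the test, and in each of them the 3 libraries of 1 week lay above the 3 of 1 day. Groups that do not overlap were found for 925 genes higher at 1 week (4.5% of genes) and for 674 lower (3.28%), and the 10 genes were chosen for their difference, so their values are a description. Tspan11 (ENSMUSG00000030351), a member of the tetraspanin family of membrane proteins, was at 0.873, 0.387 and 0.623 CPM in the 1 day libraries and at 1.77, 2.18 and 5.82 CPM in the 1 week libraries. Its log2 fold change was 2.36 (95% interval 1.29 to 3.42), and replicate 3 of 1 week stood above the others. The ad libitum libraries held 1.60, 2.31 and 2.34 CPM, so the 1 day group was the low one of the 3 groups. Srarp, named for its association with steroid receptors, showed the same order, with 0.686, 0.310 and 0.553 CPM at 1 day, 1.93, 1.15 and 1.69 CPM at 1 week and 1.4, 2.14 and 1.52 CPM ad libitum. Its log2 fold change was 1.61 (95% interval 0.87 to 2.35). Stra6 encodes the membrane receptor for retinol-binding protein. Its level was 3.05, 2.09 and 2.31 CPM at 1 day and 5.53, 5.51 and 4.64 CPM at 1 week, a log2 fold change of 1.07 (95% interval 0.49 to 1.66), against 4.38, 9.11 and 6.98 CPM ad libitum.

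Pdgfb, the growth factor by which endothelium recruits pericytes, was at 15.4, 12.2 and 13.0 CPM at 1 day and 19.0, 19.8 and 19.2 CPM at 1 week. Its log2 fold change was 0.51 (95% interval 0.24 to 0.79), the 1 week libraries were tightly grouped, and the ad libitum libraries held 18.9, 23.1 and 21.5 CPM. Ppp1r10, which encodes a nuclear targeting subunit of protein phosphatase 1, was at 53.8, 56.8 and 58.3 CPM at 1 day, 68.8, 74.4 and 74.2 CPM at 1 week and 67.0, 69.1 and 65.5 CPM ad libitum, with a log2 fold change of 0.36 (95% interval 0.17 to 0.56). In these 5 genes, Tspan11, Srarp, Stra6, Pdgfb and Ppp1r10, every 1 day library lay below every ad libitum library. The genes were picked for low 1 day values relative to 1 week, so their position relative to ad libitum rests on the same 1 day libraries.

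The other genes higher at 1 week had other patterns against the ad libitum level. Itpk1, an inositol phosphate kinase gene, was at 65.7, 75.4 and 74.9 CPM ad libitum, 93.3, 76.9 and 78.1 CPM at 1 day and 108, 124 and 113 CPM at 1 week, so the 3 groups followed one another without overlap. Its log2 fold change of 1 week over 1 day was 0.47 (95% interval 0.23 to 0.72). Timp3, an inhibitor of metalloproteinases that is bound to the extracellular matrix, was at 196, 219 and 177 CPM at 1 day and 248, 270.3 and 289.8 CPM at 1 week, a log2 fold change of 0.45 (95% interval 0.20 to 0.70). Sgk3, a kinase gene of the same family as Sgk1, was at 17.7, 13.5 and 17.1 CPM at 1 day and at 19.6, 55.3 and 57.4 CPM at 1 week. Replicates 2 and 3 of 1 week were far above all other libraries, while replicate 1 lay near the 1 day values. With every library included the log2 fold change was 1.45 (95% interval 0.66 to 2.25), and without replicate 1 of 1 week it was 1.81 with an adjusted p of 0.0142 by edgeR. Dmrta1, which encodes a DM-domain transcription factor, had a log2 fold change of 1.42 (95% interval 0.72 to 2.12), and Tamalin, a scaffold gene for metabotropic glutamate receptors, one of 0.77 (95% interval 0.35 to 1.19).

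The 9 genes described here of smallest p among those lower at 1 week did not overlap between the groups either. Apold1 (ENSMUSG00000090698), an early response gene of endothelium, was at 11.9, 11.3 and 14.8 CPM at 1 day and at 6.69, 7.25 and 8.09 CPM at 1 week. Apold1 had a log2 fold change of -0.79 (95% interval -1.15 to -0.43), and it was -0.86 to -0.66 when single libraries were left out. Ad libitum libraries held 5.13, 3.88 and 4.20 CPM, so the 1 week libraries lay between the other 2 groups and overlapped neither. Wsb1, which encodes a substrate receptor of a ubiquitin ligase, was at 51.7, 64.5 and 62.3 CPM at 1 day, 43.9, 46.3 and 36.7 CPM at 1 week and 52.7, 47.9 and 57.4 CPM ad libitum, with a log2 fold change of -0.49 (95% interval -0.78 to -0.21). Col11a1, a fibrillar collagen gene, was at 31.3, 33.4 and 40.2 CPM at 1 day and 23.3, 25.9 and 14.3 CPM at 1 week, a log2 fold change of -0.72 (95% interval -1.16 to -0.29), and replicate 3 of 1 week was the lowest.

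Zmynd10, needed to assemble the dynein arms of motile cilia, was at 1.23, 1.03 and 1.98 CPM at 1 day and 0.487, 0.654 and 0.716 CPM at 1 week, and its log2 fold change was -1.20 (95% interval -1.85 to -0.55). Cpne1, which encodes a calcium-dependent phospholipid-binding protein, was at 35.8, 38.2 and 35.2 CPM at 1 day and 28.9, 30.1 and 27.3 CPM at 1 week, close together within each group. Its log2 fold change was -0.34 (95% interval -0.54 to -0.14). Mex3a, an RNA-binding protein gene, Rassf10, a gene of the Ras-association domain family, Fank1 and Tmem74 completed the 9, with log2 fold changes of -0.79, -0.80, -0.82 and -0.52 and intervals of -1.25 to -0.33, -1.26 to -0.33, -1.30 to -0.34 and -0.82 to -0.21. The plot of the 19 genes by library shows the spread within each group, and 13 of the 19 estimates were smaller than a 2-fold change.

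**Figure D2:**
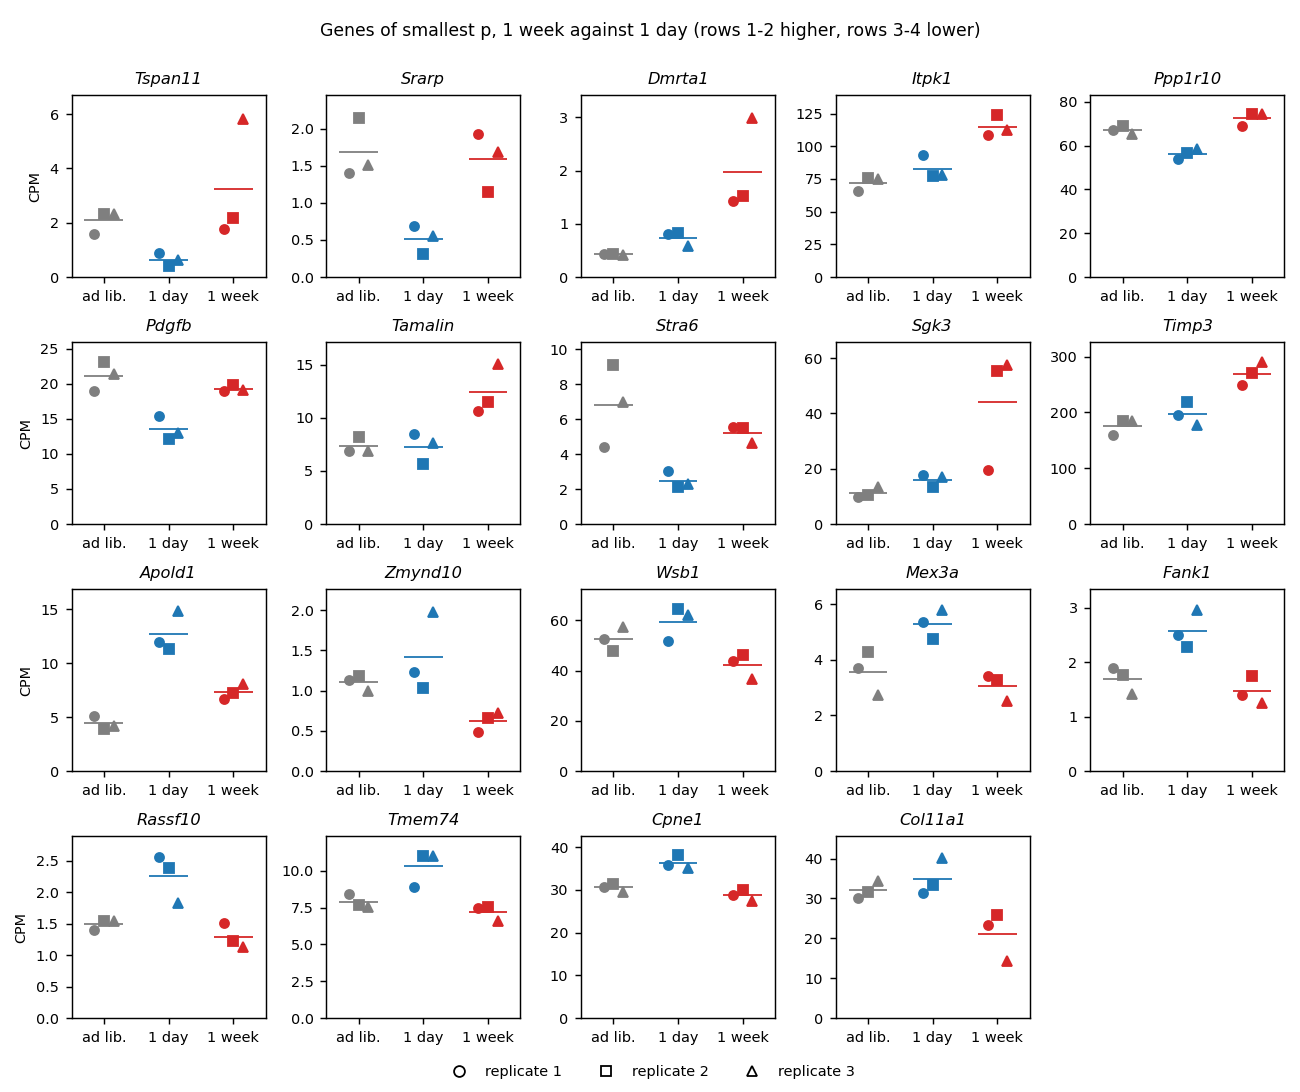
Each panel shows 1 gene, with the level in CPM from 0 on the vertical axis and the ad libitum, 1 day and 1 week groups on the horizontal axis, where points are libraries, their shapes give the replicate number and bars are group means. The top 2 rows hold the 10 genes higher at 1 week and the lower 2 rows the 9 lower, and in every panel the red 1 week points and the blue 1 day points do not overlap.

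In a list of glucocorticoid receptor targets and the receptor gene itself, most genes were higher at 1 week than at 1 day, without a gene that passed the test. Of 29 genes in the list 28 were measured, and 27 of these had a log2 fold change above 0, where 49.9% of all genes did. Their median log2 fold change was 0.40, with a range of -0.32 to 1.34. At an unadjusted p below 0.05 edgeR counted 11 members higher (39.3%, background 3.53%) and 1 lower (3.57%, background 1.69%), and 6 members had 1 week libraries all above the 1 day libraries (21.4%, background 4.5%). The list was written with results of these libraries known, so its counts are not independent evidence of its direction. The summed level of the members was 1029.83 to 1220.4 CPM ad libitum, 1513.88 to 2168.34 CPM at 1 day and 2134.03 to 2848.26 CPM at 1 week, so replicate 1 of 1 week lay within the 1 day range.

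The members differed in size, and in some of them, such as Fkbp5, Zbtb16 and Cdkn1a, replicate 1 of 1 week lay well under replicates 2 and 3. Fkbp5 (ENSMUSG00000024222) encodes the immunophilin that binds the receptor complex and lowers its affinity for hormone. Its level was 20.5, 23.1 and 22.4 CPM ad libitum, 40.0, 33.8 and 34.9 CPM at 1 day and 40.7, 89.4 and 117 CPM at 1 week. Replicates 2 and 3 of 1 week were far above the 1 day libraries, while replicate 1 exceeded the highest of them only slightly. The log2 fold change was 1.18 (95% interval 0.50 to 1.87), and without replicate 1 of 1 week it was 1.51 with an adjusted p of 0.0142 by edgeR. Without replicate 3 it was 0.84. Zbtb16, a zinc finger transcription factor gene, was at 80.3, 66.5 and 40.9 CPM at 1 day and 84.6, 193 and 198 CPM at 1 week, against 23.2, 30.4 and 31.9 CPM ad libitum. The log2 fold change was 1.34 (95% interval 0.56 to 2.12), and the same 2 libraries of 1 week held it high.

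Hif3a encodes a relative of the hypoxia-inducible factors. It was at 31.1, 13.8 and 21.7 CPM at 1 day and 40.4, 41.7 and 57.1 CPM at 1 week, with 5.5, 7.67 and 9.01 CPM ad libitum, and its log2 fold change was 1.06 (95% interval 0.42 to 1.70). Plin4, a lipid droplet coat gene, was at 132, 66.4 and 128 CPM at 1 day and 146, 198 and 252 CPM at 1 week, with 13.5, 23.0 and 15.2 CPM ad libitum, and its log2 fold change was 0.87 (95% interval 0.18 to 1.56). In both genes all 6 fasted libraries stood above the ad libitum libraries and the fasted groups did not overlap. Replicate 2 of 1 day held the lowest fasted value of both genes, and without that library the log2 fold changes were 0.82 and 0.62. Klf9 and Klf15, transcription factor genes that the receptor induces directly, had log2 fold changes of 0.32 (95% interval 0.09 to 0.56) and 0.42 (95% interval 0.12 to 0.72). Cdkn1a, a cell cycle inhibitor gene, overlapped between the groups, at 58.4, 22.9 and 44.5 CPM at 1 day and 48.5, 109.7 and 108 CPM at 1 week, a log2 fold change of 1.08 (95% interval 0.22 to 1.94).

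Other members of the list lay closer together in the fasted groups. Sgk1, a kinase gene that acts on ion channels and transporters, was at 51.9, 40.6 and 49.9 CPM ad libitum, 256, 153 and 239 CPM at 1 day and 287, 255 and 311 CPM at 1 week. The fasted groups overlapped, and the log2 fold change was 0.40 (95% interval -0.01 to 0.81). Pdk4, which restrains glucose oxidation in mitochondria, was at 24.6, 19.5 and 17.6 CPM at 1 day and 18.4, 28.9 and 28.5 CPM at 1 week, a log2 fold change of 0.29 (95% interval -0.12 to 0.71). Tsc22d3, known as the glucocorticoid-induced leucine zipper, had a log2 fold change of 0.23 (95% interval -0.07 to 0.52). Nr3c1, the gene of the receptor itself, was the single member below 0, at 82.5, 106 and 98.2 CPM at 1 day and 81.7, 78.7 and 69.1 CPM at 1 week without overlap, a log2 fold change of -0.32 (95% interval -0.59 to -0.04). Without the 2 libraries that stood apart the list's median was 0.24, with 26 of 28 members above 0, and 2 higher at an unadjusted p below 0.05 by edgeR (7.14%), a share near the 5.01% of all genes in that fit. Without replicate 3 of 1 week the median was 0.30, with 5 members higher at that level (17.9%, against 1.24% of all genes).

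**Figure D3:**
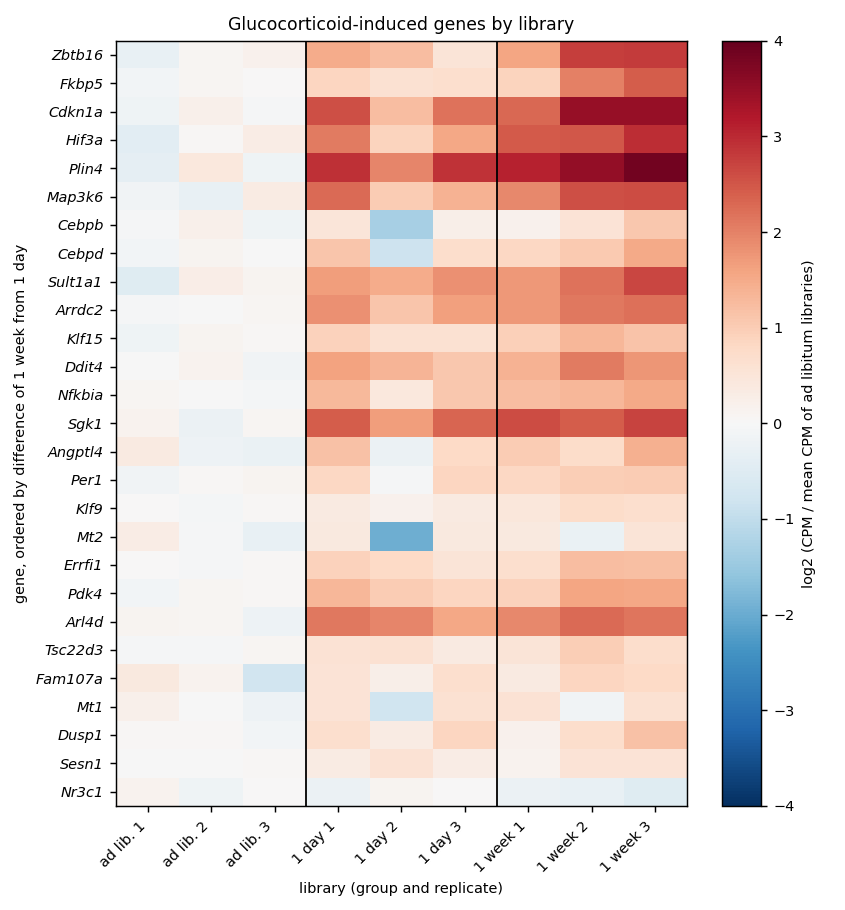
Each row is a gene of the glucocorticoid receptor list, which includes the receptor gene Nr3c1, and each column is a library grouped as ad libitum, 1 day and 1 week. The colour is the log2 ratio of the gene's CPM to the mean of the ad libitum libraries. Lcn2 is left out because 1 of its libraries is at 0. Replicate 2 of 1 day is the palest fasted column and replicates 2 and 3 of 1 week the darkest, while replicate 1 of 1 week resembles replicates 1 and 3 of 1 day.

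The receptor binds DNA as a pair on an inverted repeat, and 3 members of the list are shown here because they carry such letters close to a start site. The motif searched was GNACA followed, after any 3 bases, by TGTNC, which reads alike on both strands, in windows of 300 bases from 250 before to 50 after each start site that RefSeq gives on GRCm38.p6. It was found in 5 of the 37 windows of the 24 members matched by symbol (13.5%) and in 0.346% of the 16778 windows of all 13162 genes matched. The 4 genes with it were Sgk1, Map3k6, Mt1 and Fam107a, and the site of Fam107a was counted more than once, in windows that overlap almost entirely. The 11 windows of the 7 matched genes among the 10 leading ones higher at 1 week held none. The 250 bases before the start are printed 5′ to 3′ on the gene's strand, which is the plus strand for all 3, with the motif and any CACGTG in capitals. The Sgk1 window, 1 of several for this gene, is chr10:21993640-21993889, that of Map3k6 is chr4:133240568-133240817 and that of Mt1 is chr8:94178839-94179088.
Sgk1: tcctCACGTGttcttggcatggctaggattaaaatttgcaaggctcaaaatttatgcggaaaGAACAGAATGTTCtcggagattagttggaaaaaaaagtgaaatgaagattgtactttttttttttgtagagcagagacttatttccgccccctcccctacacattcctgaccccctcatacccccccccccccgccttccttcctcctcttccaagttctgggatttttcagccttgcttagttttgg
Map3k6: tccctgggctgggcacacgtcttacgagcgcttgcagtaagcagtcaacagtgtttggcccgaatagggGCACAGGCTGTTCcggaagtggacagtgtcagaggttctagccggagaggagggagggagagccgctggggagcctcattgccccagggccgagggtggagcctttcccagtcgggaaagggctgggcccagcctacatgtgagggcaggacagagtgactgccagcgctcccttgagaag
Mt1: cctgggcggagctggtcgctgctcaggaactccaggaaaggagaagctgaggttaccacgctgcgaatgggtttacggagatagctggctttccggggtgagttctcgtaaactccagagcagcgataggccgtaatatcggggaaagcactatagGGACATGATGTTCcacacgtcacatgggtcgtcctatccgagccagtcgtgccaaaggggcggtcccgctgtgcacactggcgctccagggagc
In these windows the motif begins 188 bases before the start in Sgk1, 181 in Map3k6 and 94 in Mt1, and the match is a description of letters, not of binding. Map3k6, a stress kinase gene, was at 10.5, 4.42 and 5.69 CPM at 1 day and 8.26, 13.0 and 13.4 CPM at 1 week, a log2 fold change of 0.75 (95% interval 0.03 to 1.46). Mt1, a metallothionein gene that binds zinc and copper, was at 199.9, 79.1 and 210.0 CPM at 1 day and 204, 124 and 212 CPM at 1 week, a log2 fold change of 0.14 (95% interval -0.64 to 0.92), with replicate 2 of each group the lowest. Fam107a, an actin-associated gene, had a log2 fold change of 0.19 (95% interval -0.41 to 0.78).

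Among genes of the circadian clock, 4 of 21 had every 1 week library below every 1 day library (19%, background 3.28%), none had the reverse (background 4.5%), and none passed the test. The 4 were Cry1 and Nfil3, which encode repressors, and Arntl and Clock, which encode the 2 partners of the activating complex that binds CACGTG. Cry1 was at 14.9, 16.3 and 14.1 CPM ad libitum, 25.3, 27.1 and 27.1 CPM at 1 day and 19.2, 22 and 15.9 CPM at 1 week. The 1 day libraries were the highest of the 9, replicate 3 of 1 week lay within the ad libitum range, and the log2 fold change was -0.48 (95% interval -0.77 to -0.19). Arntl was at 22.4, 20.9 and 22.5 CPM at 1 day and 17.2, 16.6 and 13.6 CPM at 1 week, with 19.9, 17.4 and 14.6 CPM ad libitum, and its log2 fold change was -0.47 (95% interval -0.78 to -0.16). Nfil3 and Clock had log2 fold changes of -0.40 (95% interval -0.72 to -0.07) and -0.25 (95% interval -0.48 to -0.01).

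Several genes driven by that complex had log2 fold changes above 0. Nr1d1, which encodes the repressor of Arntl, was at 38.8, 18.5 and 49.6 CPM at 1 day and 68.5, 45.6 and 60.2 CPM at 1 week, both under the 86.3, 85.0 and 81.2 CPM of the ad libitum libraries. The fasted groups overlapped, and the log2 fold change was 0.70 (95% interval 0.03 to 1.38). Dbp, a transcription factor gene with a large daily rhythm, had a log2 fold change of 0.47 (95% interval -0.20 to 1.14), and Hlf, of the same family, one of 0.46 (95% interval 0.07 to 0.84). Per1, which is both a clock gene and a glucocorticoid target, was at 97.7, 52.3 and 98.6 CPM at 1 day and 96.7, 107 and 109.7 CPM at 1 week, a log2 fold change of 0.34 (95% interval -0.12 to 0.80), and Per2 had one of 0.16 (95% interval -0.17 to 0.49). Over the list, 15 of 21 members were above 0, the median was 0.09, and 2 members were higher (9.52%, background 3.53%) and 4 lower (19%, background 1.69%) at an unadjusted p below 0.05 by edgeR. Without the 2 libraries that stood apart the median was -0.01, with 1 higher (4.76%, against 5.01% of all genes in that fit) and 2 lower (9.52%, against 4.13%). Without replicate 2 of 1 day alone the median was 0.0017 with 11 of 21 above 0. The clock time at which tissue was taken is not given in the sources used, and its part in these values was not tested.

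CACGTG, a palindrome, was found in 6 of the 27 windows of the 18 clock genes matched (22.2%) and in 9.05% of the windows of all genes. Cry1 and Per1 are shown because they carry it and lay on opposite sides of 0. The 250 bases before the start are printed 5′ to 3′ on the gene's strand, minus for Cry1 (chr10:85185055-85185304 of GRCm38.p6, RefSeq) and plus for Per1 (chr11:69098699-69098948), with CACGTG and, in Per1, the motif TTATGNAA in capitals.
Cry1: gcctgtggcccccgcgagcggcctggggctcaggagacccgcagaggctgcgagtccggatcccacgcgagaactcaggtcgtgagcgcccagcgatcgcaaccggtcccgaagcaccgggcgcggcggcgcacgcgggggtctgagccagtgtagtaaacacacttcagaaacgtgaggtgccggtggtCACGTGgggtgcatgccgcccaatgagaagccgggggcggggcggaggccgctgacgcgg
Per1: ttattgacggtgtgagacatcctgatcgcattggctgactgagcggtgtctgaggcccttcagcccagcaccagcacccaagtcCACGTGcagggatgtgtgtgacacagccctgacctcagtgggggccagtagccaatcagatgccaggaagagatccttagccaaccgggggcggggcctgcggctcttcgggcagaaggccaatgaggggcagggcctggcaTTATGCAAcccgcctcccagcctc
CACGTG begins 60 bases before the start in Cry1 and 166 in Per1. TTATGNAA, searched on both strands, was found in 2 of the 27 clock windows (7.41%), those of Per1 and Per3, and in 2.26% of all windows.

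Immediate early genes, which neurons and vessels transcribe within minutes of a stimulus, were mixed. Of 25 members 0 passed the test and 15 were above 0, with a median log2 fold change of 0.11 and a range of -1.73 to 1.63. At an unadjusted p below 0.05 edgeR counted 0 higher (background 3.53%) and 2 lower (8%, background 1.69%). With voom the median was -0.13, with 0 higher and 8 lower at that level (32%, against 2.6% of all genes in that fit). Without replicate 1 of 1 week edgeR counted 3 higher (12%, against 4.02%) and 1 lower (4%, against 2.03%). The median turned to -0.40 without replicate 3 of 1 week, with 7 of 25 above 0, since that library held the highest values of several members. Fos, a partner in the AP-1 transcription factor, was at 6.78, 5.47 and 4.96 CPM ad libitum, 21.4, 13.3 and 23.5 CPM at 1 day and 4.63, 13.3 and 19.0 CPM at 1 week. The 1 week libraries spread from the ad libitum level to the 1 day level, and the log2 fold change was -0.66 (95% interval -1.64 to 0.33). Egr1 was at 43.0, 22.5 and 47.2 CPM at 1 day and 11.9, 22.9 and 26.9 CPM at 1 week, a log2 fold change of -0.87 (95% interval -1.65 to -0.09), with overlap at replicate 2 of 1 day. Btg2, an antiproliferative gene, was the single member whose groups did not overlap (4%, near the background of 3.28%), at 19.4, 18.7 and 25.7 CPM at 1 day and 14.4, 14.3 and 17.3 CPM at 1 week, a log2 fold change of -0.47 (95% interval -0.82 to -0.13).

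Npas4, which is induced selectively by neuronal activity, had a log2 fold change of -0.68 (95% interval -1.46 to 0.09). Arc, a regulator of glutamate receptor turnover, was at 18.4, 17.3 and 18.9 CPM at 1 day and 16.1, 11.6 and 30.8 CPM at 1 week, a log2 fold change of 0.10 (95% interval -0.55 to 0.74). Egr3 was at 2.58, 1.39 and 2.86 CPM at 1 day and 2.33, 2.95 and 15.9 CPM at 1 week, so that its log2 fold change of 1.63 (95% interval -0.08 to 3.33) rested on replicate 3, the single high library. Bdnf, the neurotrophin gene, had a log2 fold change of 0.00 (95% interval -0.42 to 0.42). Markers of cortical neurons were high in replicate 3 of 1 week too, as given with the cell type lists, and their part in the values of Arc and Egr3 was not tested.

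Metabolic gene groups had medians close to 0, and no member of them passed the test. Of the 24 genes of fatty acid oxidation and ketone use 11 were above 0, and their median log2 fold change was -0.01. Of 18 genes of fatty acid synthesis 8 were above 0, with a median of -0.01, and no member was free of overlap. Of 25 genes of cholesterol synthesis 4 were above 0 and 21 below, with a median of -0.14 (-0.048 without replicate 2 of 1 day and -0.056 without replicate 3 of 1 week), and none reached an unadjusted p below 0.05 by edgeR. Mvd, which makes isopentenyl diphosphate from mevalonate diphosphate, was the single one without overlap (4%, near the background of 3.28%), at 12.5, 11.2 and 12.1 CPM at 1 day and 10.8, 9.84 and 9.10 CPM at 1 week, a log2 fold change of -0.27 (95% interval -0.57 to 0.03). The medians of the fatty acid lists, and those of the Atf4, autophagy and nuclear oxidative phosphorylation lists given next, changed sign when some single libraries were left out.

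Of 21 genes of glycolysis and lactate transport 12 were above 0, with a median of 0.04. Slc2a1, the glucose transporter gene of the blood-brain barrier and astrocytes, was at 117, 135 and 138 CPM ad libitum, 211, 187 and 149 CPM at 1 day and 213, 277 and 247 CPM at 1 week. The fasted groups did not overlap, though replicate 1 of each was nearly the same, and the log2 fold change was 0.43 (95% interval 0.10 to 0.76). Of 23 genes of insulin, FoxO and energy sensing 16 were above 0, with a median of 0.06. Among them Txnip, an inhibitor of glucose uptake, had a log2 fold change of 0.33 (95% interval 0.04 to 0.61), Foxo1, the insulin-restrained factor, one of 0.47 (95% interval -0.09 to 1.02), and Eif4ebp1, a brake on translation, one of 0.81 (95% interval 0.09 to 1.53). Of 20 genes of the amino acid response through Atf4 14 were above 0, with a median of 0.06, and Slc7a5, the large neutral amino acid transporter gene, was at 96.2, 96.5 and 91.6 CPM at 1 day and 117, 109.8 and 103 CPM at 1 week without overlap, a log2 fold change of 0.21 (95% interval 0.02 to 0.41).

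Autophagy and lysosome genes were even, with 13 of 26 above 0 and a median of 0.0012. Tfeb, the master regulator of lysosomal genes, was at 16.4, 11.7 and 13.9 CPM at 1 day and 17.2, 18.6 and 17.3 CPM at 1 week without overlap, a log2 fold change of 0.34 (95% interval 0.02 to 0.65), and its relative Tfe3 had one of 0.20 (95% interval -0.06 to 0.46). Of 18 targets of NRF2, the factor of the oxidative stress response, 12 were above 0 with a median of 0.09, and 0.26 without replicate 2 of 1 week. Of 23 chaperone genes 18 were below 0, with a median of -0.13, but without replicate 2 of 1 day 18 were above 0 with a median of 0.044, so the list had no stable direction. Hsph1 and Hsp90aa1, cytosolic chaperones of the heat shock response, had log2 fold changes of -0.36 (95% interval -0.76 to 0.04) and -0.21 (95% interval -0.53 to 0.10), and Hspb1, a small heat shock protein gene, one of 1.26 (95% interval 0.32 to 2.20). The large sets of housekeeping genes had medians of -0.01 over 60 nuclear genes of oxidative phosphorylation and -0.01 over 75 ribosomal protein genes, and the ribosomal median ran from -0.11 without replicate 1 of 1 week to 0.12 without replicate 2 of 1 week. The 13 genes of the mitochondrial genome had a median of -0.07, which single libraries moved from -0.40 (without replicate 2 of 1 day) to 0.41 (without replicate 3 of 1 day), with 0.22 without replicate 2 of 1 week. The 26 interferon-induced and antigen presentation genes had a median of 0.01 (-0.065 to 0.11 when single libraries were left out) with 0 members at an unadjusted p below 0.05 by edgeR and 0 without overlap.

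Genes of dopamine neurons were mostly above 0, with wide intervals. Of 20 members 18 had a log2 fold change above 0, with a median of 0.26, and 4 were higher at an unadjusted p below 0.05 by edgeR (20%, background 3.53%). Th, which encodes the enzyme that limits the rate of dopamine synthesis, was at 159.6, 177 and 207 CPM ad libitum, 162, 88.6 and 76.1 CPM at 1 day and 296, 118 and 211 CPM at 1 week. Replicate 1 was the highest library in each fasted group, the groups overlapped, and the log2 fold change was 0.94 (95% interval 0.12 to 1.75). Slc6a3 was at 309.6, 335 and 184 CPM at 1 day and 526, 262 and 447 CPM at 1 week, a log2 fold change of 0.58 (95% interval -0.05 to 1.20). Pitx3, the transcription factor on which nigral dopamine neurons depend, had one of 0.90 (95% interval 0.05 to 1.75). Sox6 was at 30.2, 31.2 and 28.0 CPM at 1 day and 39.0, 32.7 and 33.7 CPM at 1 week, a log2 fold change of 0.24 (95% interval 0.01 to 0.47). It was the single member without overlap (5%, near the background of 4.5%). The list's summed level was 1236.34 to 2072.84 CPM at 1 day, 1723.19 to 2708.38 CPM at 1 week and 1802.96 to 2270.99 CPM ad libitum. Without replicate 1 of 1 week the median was 0.10 with 13 of 20 above 0 and 0 members at that level, and without the 2 libraries that stood apart it was 0.51 with 19 of 20 above 0. In bulk RNA fewer cells of a type and less RNA per cell cannot be told apart, nor can either be told from a shift in the borders of the dissected piece.

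Levels of markers of other brain regions differed between libraries. Markers of cortex and hippocampus neurons summed to 699.185 to 889.44 CPM at 1 day and 718.283 to 2140.64 CPM at 1 week, and Slc17a7, the vesicular glutamate transporter gene of those regions, was at 9.50, 5.06 and 4.31 CPM at 1 day and 10.02, 41.9 and 501 CPM at 1 week, against 33.2, 48.3 and 49.2 CPM ad libitum. Replicate 3 of 1 week alone held the high value of Slc17a7. The log2 fold change of Slc17a7 was 4.87 (95% interval 1.61 to 8.13) and was 2.03 without that library, while the list's median moved from 0.69 to 0.14. Markers of thalamus and hypothalamus ran the other way in that library, with Slc17a6, the glutamate transporter gene of the midbrain and thalamus, at 242, 351 and 315 CPM at 1 day and 239, 271 and 82.5 CPM at 1 week. Of 22 neuropeptide genes 16 were below 0, with a median of -0.61, and Trh, at 4.57, 1.76 and 8.0 CPM at 1 day and 1.60, 0.682 and 0.832 CPM at 1 week, was 1 of 2 members without overlap (9.09%, background 3.28%), with a log2 fold change of -2.18 (95% interval -3.77 to -0.59). With all libraries 3 members were lower at an unadjusted p below 0.05 by edgeR (13.6%, background 1.69%). Without replicate 3 of 1 day the list's median was -0.34, with 0 members lower at that level, against 1.16% of all genes in that fit. Penk, an enkephalin precursor gene, had a log2 fold change of -0.34 (95% interval -0.64 to -0.04), and Cck one of 0.66 (95% interval 0.08 to 1.24). Hcrt and Pmch, peptides of the lateral hypothalamus, ranged over the 1 day libraries from 0 to 4.20 CPM and from 1.55 to 39.9 CPM, and over the 1 week libraries from 0.0361 to 0.164 CPM and from 0.254 to 3.24 CPM. The part of the dissection in the values of the regional markers and the neuropeptides was not tested.

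Genes of red blood cells stood out among the marker lists. All 7 measured members were above 0, the median log2 fold change was 1.29, and 5 of them had 1 week libraries all above the 1 day libraries (71.4%, background 4.5%). Hbb-bs, an adult beta-globin gene, was at 189.5, 175 and 172 CPM ad libitum, 133, 176 and 132 CPM at 1 day and 181, 328 and 573 CPM at 1 week. This gave a log2 fold change of 1.29 (95% interval 0.52 to 2.07), with replicate 3 of 1 week the highest of the 9 libraries. Alas2, the first enzyme of heme synthesis in erythroid cells, was at 4.99, 4.05 and 5.90 CPM at 1 day and 7.5, 8.48 and 23.3 CPM at 1 week, against 7.46, 7.32 and 7.34 CPM ad libitum, a log2 fold change of 1.39 (95% interval 0.53 to 2.26). Hba-a1 and Hbb-bt had log2 fold changes of 1.79 (95% interval 0.63 to 2.95) and 1.23 (95% interval 0.49 to 1.97), but the alpha-globin pair and the beta-globin pair are near-identical copies between which the counting divides reads, so they are not separate evidence. The list's summed level was 497.204 to 525.412 CPM ad libitum, 364.49 to 377.058 CPM at 1 day and 555.536 to 1602.64 CPM at 1 week. The median was 0.68 without replicate 3 of 1 week, and 1.51 without the 2 libraries that stood apart. Blood left in the vessels and RNA made in the tissue cannot be told apart in these libraries.

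Markers of border tissues followed single libraries. All 12 genes of meninges and fibroblasts were above 0, with a median log2 fold change of 1.17 and 7 at an unadjusted p below 0.05 by edgeR (58.3%, background 3.53%), yet none was free of overlap. Without replicate 3 of 1 week the median was 0.67 and 0 members were at that level. Col1a1, a collagen gene of fibroblasts, was at 16.9, 9.68 and 8.85 CPM at 1 day and 23.1, 14.5 and 29.8 CPM at 1 week, and Islr, another fibroblast gene, at 5.51, 3.95 and 4.01 and 15.3, 5.10 and 25.1 CPM. Replicates 1 and 3 of 1 week were high in both while replicate 2 lay near the 1 day values, and ad libitum libraries held 5.40, 16.1 and 20.7 CPM of Islr. The 7 measured genes of border macrophages and other leukocytes had a median of 0.88 (0.60 to 1.17 when single libraries were left out). Lyve1 was at 0.561, 0.258 and 0.599 CPM at 1 day and 1.59, 0.845 and 3.07 CPM at 1 week, a log2 fold change of 1.94 (95% interval 0.84 to 3.04). Cd163 was at 3.32, 4.72 and 1.82 CPM at 1 day and 5.93, 5.48 and 9.20 CPM at 1 week, a log2 fold change of 1.06 (95% interval 0.17 to 1.96). These 2 members were without overlap (28.6%, background 4.5%). Pericyte and smooth muscle genes had a median of 0.30 over 10 members (0.20 without replicate 3 of 1 day), with Acta2, the smooth muscle actin gene, at 15.9, 11.2 and 9.71 CPM at 1 day and 28.8, 11.9 and 38.9 CPM at 1 week.

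All 10 marker genes of ependyma, the ciliated lining of the ventricles, lay below 0, with a median of -0.88, and none was free of overlap. With all libraries 2 of them were lower at an unadjusted p below 0.05 by edgeR (20%, background 1.69%). Hydin, a component of the ciliary axoneme, was at 5.94, 3.85 and 9.29 CPM at 1 day and 1.87, 4.06 and 1.71 CPM at 1 week, a log2 fold change of -1.33 (95% interval -2.17 to -0.49). Replicate 2 of 1 week lay within the 1 day range, replicates 1 and 3 lay under it, and ad libitum libraries held 3.70, 3.44 and 3.73 CPM. Without the 2 libraries that stood apart all 10 members were lower at an unadjusted p below 0.05 by edgeR (4.13% of all genes in that fit) and the median was -1.23. Without replicate 3 of 1 day alone 1 member was at that level, where 1.16% of all genes were lower in that fit, and the median was -0.52. The part of the dissected tissue's borders in the meningeal and ependymal values was not tested.

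**Figure D4:**
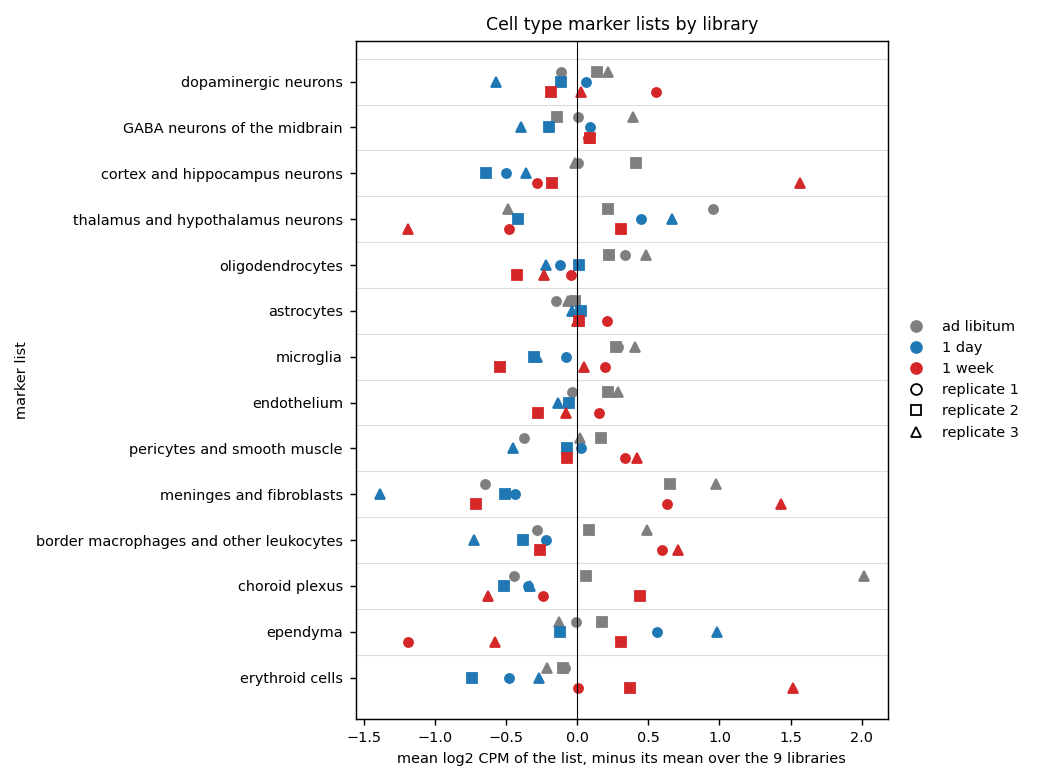
Each point is a library, with the mean log2 CPM of a cell type's marker list minus the mean of that list over the 9 libraries on the horizontal axis and the lists on the vertical axis. Colour gives the group and shape the replicate number. In the erythroid list and in the cortex and hippocampus list the 1 week points all lie to the right of the 1 day points, with replicate 3 of 1 week farthest to the right in both.

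Glial and endothelial lists had medians nearer to 0, and leaving out 1 library turned the sign of each. The 15 oligodendrocyte genes had a median log2 fold change of -0.04. Mbp, the myelin basic protein gene, had a log2 fold change of 0.14 (95% interval -0.20 to 0.47), Trf, the transferrin gene that oligodendrocytes express, one of -0.01 (95% interval -0.38 to 0.36), and Ugt8a, which makes the galactolipids of myelin, one of -0.27 (95% interval -0.71 to 0.17). Sp7, a transcription factor gene of myelinating cells, was at 8.02, 4.89 and 4.25 CPM ad libitum, 3.12, 2.79 and 2.79 CPM at 1 day and 1.60, 1.20 and 2.08 CPM at 1 week, so that the 3 groups did not overlap. Its log2 fold change was -0.83 (95% interval -1.45 to -0.21). The 12 astrocyte genes had a median of -0.03, and Gfap, the intermediate filament gene, was at 339, 449 and 257 CPM at 1 day and 574, 397 and 653 CPM at 1 week, a log2 fold change of 0.64 (95% interval 0.12 to 1.15). Cxcl12, a chemokine gene, had one of 0.26 (95% interval 0.02 to 0.50). The 15 microglial genes had a median of 0.16, with 0 members at an unadjusted p below 0.05 by edgeR. Their median was -0.0017 without replicate 1 of 1 week. Without replicate 2 of 1 week it was 0.43, with 6 of 15 members higher at that level, where 6.16% of all genes were. The 12 endothelial genes had a median of -0.03, with Cldn5, the tight junction gene, at -0.21 (95% interval -0.63 to 0.20). Of the choroid plexus genes, Ttr was at 4.36, 2.61 and 5.97 CPM at 1 day and 6.67, 35.5 and 4.58 CPM at 1 week, against 4.07, 15.1 and 335 CPM ad libitum, where 1 library held most of it.

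The intervals show what these libraries leave possible for a set of genes known to respond to fasting or to mark the region. For Mbp, Trf, Bdnf, Per2, Tsc22d3 and Cxcl12 the interval lay within a 1.5-fold change in either direction, and for Sgk1, Klf15, Pdk4, Per1, Arc, Cldn5 and Ugt8a within a 2-fold change. For Fkbp5, Zbtb16, Hif3a, Cdkn1a, Plin4, Th and Gfap the interval reached beyond a 2-fold increase and its lower end lay above 0, though none passed the test over all genes. For Fos, Npas4 and Egr1 it reached beyond a 2-fold decrease. The intervals of Slc6a3 (-0.05 to 1.20), Slc17a7 (1.61 to 8.13) and Ttr (-1.87 to 5.55) reached beyond a 2-fold increase too. For these genes and the 10 named before them the libraries set no 2-fold limit on the difference between repeated and single fasts.

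**Figure D5:**
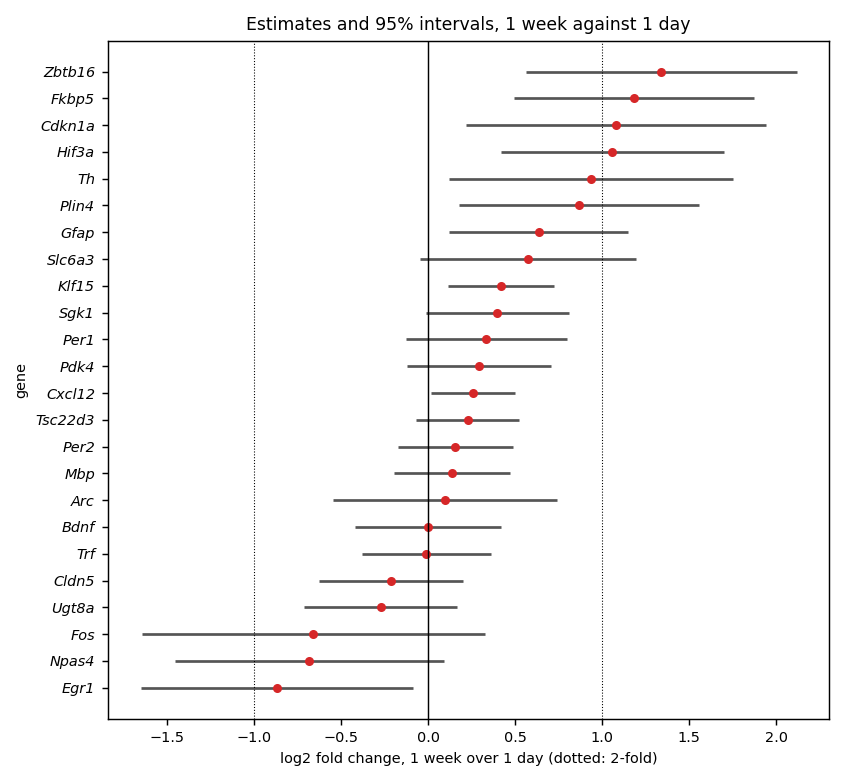
The horizontal axis is the log2 fold change of 1 week over 1 day, with a point for the estimate and a line for its 95% interval, and each row of the vertical axis is a gene. Dotted lines mark a 2-fold change, and Slc17a7 and Ttr are left out because their intervals exceed the axis. The glucocorticoid targets Zbtb16, Fkbp5 and Cdkn1a lie at the right end and the immediate early genes Egr1, Npas4 and Fos at the left end.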

How the data were processed

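Substantia nigra RNA was sequenced in 9 libraries, 3 per group, and the groups and replicate numbers were taken from the labels. Per the labels' protocols, polyA RNA and a directional kit that keeps the strand were used. The authors deposited 1 table of estimated counts, given per gene as whole numbers. The submitters' processing notes name Salmon, DESeq2 1.40.2 and the builds GRCm39 and mm39, and further steps are not given in the sources used. Salmon estimates counts per transcript and divides reads between near-identical copies. No genome of that build was used, so genes carry no coordinates, and promoters are those of RefSeq on GRCm38.p6.

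The 20591 rows, the lowest with a mean of 9.89 counts, were filtered with filterByExpr (minimum count 10, minimum total 15), which left 20535 genes. EdgeR 4.0.16 in R 4.3.3 fitted a robust quasi-likelihood model with TMM factors to all 9 libraries, with 6 residual degrees of freedom. The contrast of 1 week minus 1 day was tested two-sided with Benjamini-Hochberg adjustment over all genes at 0.05. The 95% interval of a log2 fold change came from its F statistic. CPM are on the TMM scale, and a standard of at least 5 log2 CPM marks well measured genes. Steps were tested on simulated data.

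Alternatives were RLE factors, DESeq2 1.42.0, limma 3.58.1 voom with quality weights, no filter, 1 CPM in at least 6 libraries, the 6 fasted libraries alone, a replicate block, each library left out, and both libraries that stood apart left out. The members, the 33 gene lists and the alternatives were chosen with earlier results of these data known. Genes are named, leaving out unnamed gene models and means under 0 log2 CPM, as the 10 of smallest p per direction since none passed (1 of those lower is not reported here), up to 4 per list described (those of smallest p), and a set that includes Sgk1, Fkbp5, Fos, Th, Mbp and Gfap. Other members, among them Nr3c1, Klf9, Clock, Nr1d1, Dbp, Map3k6, Mt1 and Fam107a, were named after their values were seen. The share of promoter motifs among genes past the test could not be computed, because no gene passed.

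By the rule used, replicate numbers were taken as pairing the fasted groups. The pairing entered only the replicate block among the alternatives, and the main test was fitted on group alone. Over 11098 genes, the deviations of same-numbered 1 day and 1 week libraries correlated at 0.179, 0.514 and 0.143. Of the differently numbered pairs, replicate 3 of 1 day with replicate 1 of 1 week reached 0.361. Replicate 1 of 1 day with replicate 3 of 1 week reached 0.319, and the others lay at -0.419 to -0.29. The correlations thus did not simply follow the number. The labels give no basis for a pairing, and the same numbers of ad libitum and fasted libraries correlated at -0.349 to 0.246.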

Additional observations from a re-analysis of the deposited data

How the results depend on the processing

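The count of 0 genes past the test was kept with RLE factors, voom, both other filters, the 6 fasted libraries alone and without both libraries that stood apart. DESeq2 called 3 genes, 1 higher and 2 lower. Leaving out each library gave 0 to 3 genes, 0 to 3 of them higher and 0 lower, and the 3 came without replicate 1 of 1 week: Gh (8.17), Fkbp5 (1.51) and Sgk3 (1.81), each with an adjusted p of 0.0142 by edgeR. Gh was filtered out of the test of all 9 libraries and entered that fit only through the 2 libraries where it was high, so its call supports nothing. The number of genes at an unadjusted p below 0.05 by edgeR was 410 to 2045 when single libraries were left out. It was 2045 without replicate 1 of 1 day, 661 without replicate 3 of 1 day, 2006 without replicate 2 of 1 week and 410 without replicate 3 of 1 week. The replicate block on 9 libraries called 0 genes and counted 935 at that level, the replicate block on the 6 fasted libraries, added after the data were seen, called 0 and counted 929, and neither block changed a call. The precision is set by 3 libraries per group.

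Of the genes named with a value, 7 had an estimate that changed sign under at least 1 alternative, and none of them was past the test. With all libraries the estimate of largest size among them was that of Ugt8a, at -0.27. The estimate of Arc was -0.025 with the replicate block on the 6 fasted libraries, and -0.40 (without replicate 3 of 1 week) to 0.37 when single libraries were left out. Bdnf was at -0.0032 with RLE factors and with DESeq2, at -0.0030 with the 6 fasted libraries alone, and at -0.093 to 0.068 when single libraries were left out. Trf was at 0.082 with voom, at 0.20 without both libraries that stood apart, and at -0.15 to 0.18 when single libraries were left out, and Mt1 was at -0.18 to 0.37 over the same fits. Without both libraries that stood apart Per2 was at -0.035, Fam107a at -0.0037 and Ugt8a at 0.073. The cause was not tested.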

Other observations

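Pituitary hormone genes appeared in 2 libraries of 1 week. Gh, the growth hormone gene, had 3, 807 and 277 counts in the 1 week libraries, 1, 1 and 4 in the 1 day libraries and 1, 0 and 0 in the ad libitum libraries. Prl, the prolactin gene, had 1, 75 and 24 counts at 1 week and 3 or fewer in every other library. Replicates 2 and 3 of 1 week, which held these counts, were also the 2 with the highest Fkbp5, Zbtb16 and Sgk3, and replicate 1, which held few, lay near the 1 day libraries in those genes. Both hormone genes were chosen after their values were seen, and their relation to the glucocorticoid genes was not tested. Whether these counts came from tissue outside the dissected piece was not tested either, so the values are not a measure of expression in the substantia nigra. The unnamed gene model that DESeq2 called, Gm9531, had 248, 0 and 155 counts ad libitum, 0, 0 and 248 at 1 day and 0 in all 3 libraries of 1 week, so its call rested on 1 library of the 1 day group.

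Among GABA neuron genes of the midbrain, Gata2, a factor of GABA neuron fate, was at 13.6, 8.44 and 8.69 CPM at 1 day and 16.4, 16.6 and 16.4 CPM at 1 week, a log2 fold change of 0.68 (95% interval 0.21 to 1.16) that did not pass the test of edgeR. Tns3, a focal adhesion gene expressed in cells that enter myelination, was at 171, 168 and 144 CPM at 1 day and 189, 176 and 196 CPM at 1 week without overlap, a log2 fold change of 0.21 (95% interval -0.01 to 0.44). Gjb6, an astrocyte gap junction gene, was at 53.9, 74.4 and 66.9 CPM ad libitum, 95.4, 104 and 89.6 CPM at 1 day and 112, 115 and 108 CPM at 1 week, so the 3 groups followed one another without overlap, with a log2 fold change of 1 week over 1 day of 0.21 (95% interval -0.06 to 0.49).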
